A study of Homo sapiens with 3 samples.

Results

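The regulators of multiciliogenesis studied here are 8 genes, MCIDAS, GMNC, CCNO, MYB, DEUP1, CCDC78, RFX2 and RFX3, taken by gene symbol from a table of 58735 genes. All 8 had a row in the table. Their transcripts were read by sequencing of poly(A) RNA from RPE-1, an established human line of retinal pigment epithelium that telomerase keeps dividing. The cells carried a GFP tag on CETN2, which marks centrioles, and a PLK4 gene driven by a doxycycline-responsive promoter through rtTA. The study concerns centriole overduplication after PLK4 overexpression. The 3 libraries analysed here received a scramble siRNA and no PLK4 induction, so they form 1 control group and the values describe the uninduced state of the engineered line. Nothing in the labels says that they came from separate cultures, so the tests measure only the spread between these 3 libraries, which may be technical.

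Multiciliated cells of the airway, the brain ventricles and the oviduct build many centrioles at once instead of the single new centriole that a dividing cell adds to each old one. In that programme GMNC and MCIDAS, coiled-coil proteins related to the replication inhibitor geminin, act as transcriptional coactivators with E2F and DP proteins, while Notch signalling holds the fate back. MYB and CCNO act downstream, DEUP1 and CCDC78 belong to the deuterosome on which the extra centrioles form, and RFX2 and RFX3 bind promoters of cilium genes. RPE-1 cells can form a primary cilium and divide, and are not a multiciliated type.

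Libraries 1, 2 and 3 held 49279692, 60040029 and 46625774 counts. By a chi-square test of the 3 counts of each gene against library size, 11182 of 16293 genes differed between the libraries by more than counting noise (68.6%), and 4581 did so without library 1. Library 1 had counts in 19953 genes, against 24416 in library 2 and 23050 in library 3. Pigment epithelium markers were found in part, with 5 of 10 at 1 CPM or more in every library, while TYR, DCT and TTR had 0 counts. Of the markers of multiciliated cells, 1 of 8 (CAPS) reached that level. The list summed to 7.23, 6.19 and 4.81 CPM in libraries 1, 2 and 3, with RSPH1 and SNTN at 0 counts. CAPS alone gave 6.43, 5.93 and 4.27 CPM of these sums.

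The regulators lay mostly at low levels, and CCNO was the highest of them in every library. A gene counted as detected at 1 CPM or more in each of the 3 libraries, CPM being its count scaled to the library's total. MCIDAS, CCNO, MYB, RFX2 and RFX3 met this, 5 of 8, beside 57.7% of all protein-coding genes and 21.5% of all genes in the table. CCDC78 exceeded 1 CPM in library 1 only, GMNC stayed below it, and DEUP1 had no counts. Their median place was the 44.2 percentile of protein-coding genes by RPKM (CPM per kb of annotated exon), from 0 for DEUP1 to 70.1 for CCNO. The share of regulators detected was close to the share of protein-coding genes.

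**Figure D1:**
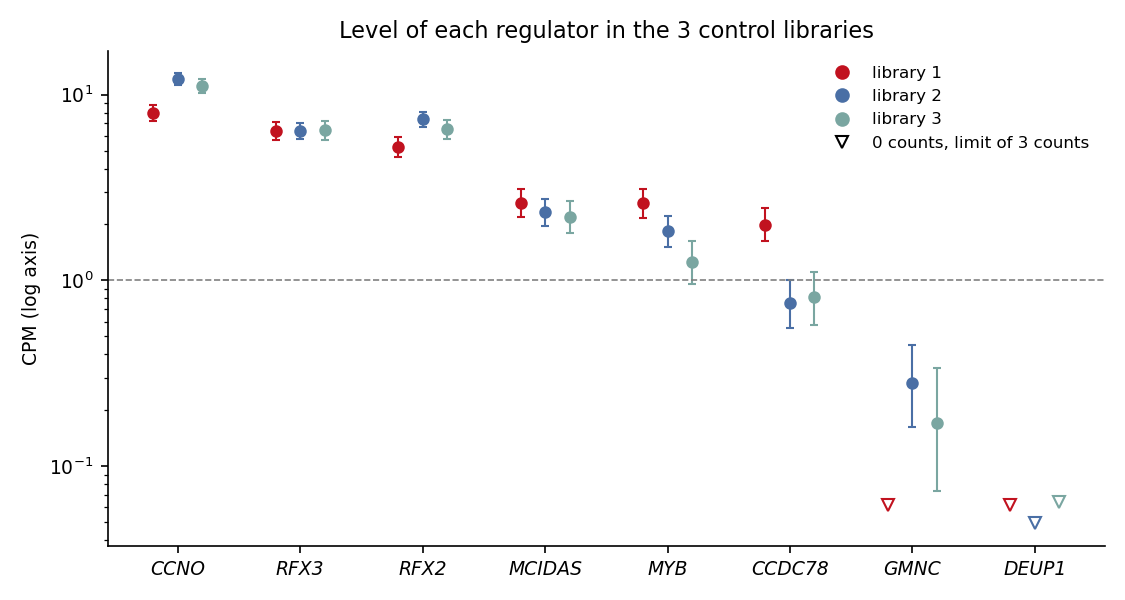
CPM of each regulator (log axis) in libraries 1, 2 and 3, as points with exact 95% binomial intervals, open triangles where a library had 0 counts, drawn at the limit of 3 counts, and a dashed line at 1 CPM. CCNO stood highest in every library, CCDC78 was above 1 CPM in library 1 only, and DEUP1 had no counts.

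**Figure D2:**
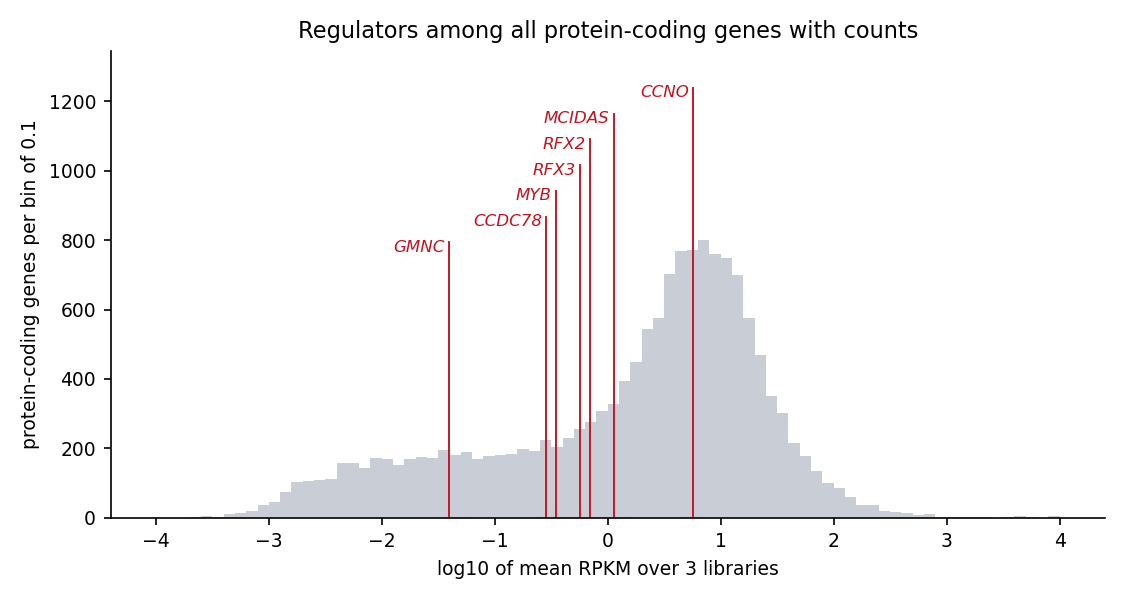
Histogram of log10 mean RPKM over the 3 libraries for protein-coding genes with counts, with a red line for each regulator that had counts. CCNO, at 5.75 RPKM, sits near the main peak, and the other 6 lie at or below 1.14 RPKM.

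MCIDAS (ENSG00000234602, chromosome 5, 55219614 to 55227315, minus strand), the multicilin gene, is the coactivator whose expression starts centriole amplification. Its 3 libraries had 127, 142 and 103 counts, or 2.62, 2.34 and 2.20 CPM (1.14 ± 0.101 RPKM, SD, n = 3). The values lay within a ratio of 1.19 from highest to lowest. The 3 values were not told apart from counting noise (adjusted p = 0.453, chi-square test with Benjamini-Hochberg adjustment over the 16293 genes). No annotated exon of another gene overlaps its exons. At the 49.9 percentile of protein-coding genes, it was the second highest of the 8 regulators per unit of length.

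CCNO (ENSG00000152669, chromosome 5, 55231152 to 55233680, minus strand), an atypical cyclin needed for centriole amplification, lies 3836 bases upstream of MCIDAS on the same strand. It had 386, 736 and 520 counts, or 7.95, 12.1 and 11.1 CPM in libraries 1, 2 and 3. Library 1 was the lowest and its interval (7.18 to 8.79 CPM) did not overlap those of libraries 2 (11.3 to 13.02) and 3 (10.2 to 12.1). The spread exceeded counting noise (adjusted p = 3.07e-10, chi-square test), and without library 1 it did not (adjusted p = 0.272). CCNO stood above MCIDAS by a log2 RPKM difference of 1.81, 2.58 and 2.54 in libraries 1, 2 and 3, a mean of 4.96-fold (2.31 ± 0.43 SD; two-sided exact sign-flip test, p = 0.25, the least that 3 libraries can give).

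The other genes of this stretch of chromosome 5 did not share a level. CDC20B (55112995 to 55173175, minus strand), a gene of the deuterosome programme that hosts the miR-449 microRNAs, had 0, 6 and 15 counts. The 3 microRNA rows, MIR449A, MIR449B and MIR449C, had 0 counts, although poly(A) libraries of this kind do not capture mature microRNAs. GPX8 (55160118 to 55167071, plus strand), a peroxidase gene of the endoplasmic reticulum that lies inside the span of CDC20B on the other strand, reached 162 ± 4.38 CPM. On the far side of CCNO, DHX29 (55256245 to 55307722, minus strand), an RNA helicase of translation initiation, stood at 63.4 ± 2.81 CPM (SD, n = 3 each). The antisense gene AC026704.1, which starts just beyond CCNO on the plus strand, had 13, 8 and 16 counts.

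Promoter sequence is shown for MCIDAS and CCNO, the highest regulators per unit of length, and for DEUP1, the one without counts, because CCNO and DEUP1 hold an RFX motif. The windows are the 250 bases before the RefSeq start (GRCh38.p14), 5′ to 3′ on the gene's strand, with bases inside annotated exons left out. Capitals mark letters that match the RFX X-box (GTNNCC, then 3 bases of any kind, then GNAAC), its half-site (GTTGCC) or an E2F site (TTTNNCGC), each searched on both strands, and a half-site can lie within an X-box.
MCIDAS: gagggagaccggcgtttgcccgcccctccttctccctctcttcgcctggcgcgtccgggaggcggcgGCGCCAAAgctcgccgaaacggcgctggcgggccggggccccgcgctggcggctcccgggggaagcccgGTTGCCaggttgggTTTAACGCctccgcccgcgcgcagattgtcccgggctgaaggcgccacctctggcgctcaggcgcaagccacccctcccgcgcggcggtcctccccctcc
CCNO: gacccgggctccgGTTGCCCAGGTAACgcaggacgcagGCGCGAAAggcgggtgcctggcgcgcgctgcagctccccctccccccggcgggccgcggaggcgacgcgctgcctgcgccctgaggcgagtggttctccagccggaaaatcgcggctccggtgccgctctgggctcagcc
DEUP1: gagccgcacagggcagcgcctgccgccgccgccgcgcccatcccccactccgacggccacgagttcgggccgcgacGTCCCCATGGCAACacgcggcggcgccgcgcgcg
These are chr5:55227316-55227565 (minus strand), chr5:55233681-55233858 (minus strand) and chr11:93330492-93330601 (plus strand), the last lying inside the GENCODE span of DEUP1 because the RefSeq start is further along. The CCNO window held an X-box from base 237 to base 224 before the start, written GTTGCCCAGGTAAC, and DEUP1 held one from base 174 to base 161, written GTCCCCATGGCAAC. MCIDAS held a half-site and a pair of E2F matches, TTTGGCGC on the reverse strand and TTTAACGC on the forward strand. CCNO held 1 E2F match, TTTCGCGC on the reverse strand. CCDC78, whose window is not shown, also held a half-site and an E2F match (TTTCACGC), both touching annotated exons. Of 34943 such windows over all genes, 1.98% held the X-box, 10.2% the half-site and 5.89% the E2F letters. Windows were found for 7 of the 8 regulators (not RFX2), and no X-box was found in those of MCIDAS, GMNC, MYB, CCDC78 and RFX3. A core MYB motif (AACNG) was in 70.6% of all windows and so separates little. These matches describe letters, and binding was not measured.

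GMNC (ENSG00000205835, chromosome 3, 190852877 to 190892429, minus strand), which encodes GEMC1 and acts upstream of MCIDAS in mouse, was barely measured. It had 0, 17 and 8 counts, or 0, 0.280 and 0.171 CPM. The 0 in library 1 allows up to 0.0618 CPM (3 counts), which lies below both other values, whereas a level like theirs would have given 11.3 counts. With a mean of 8.33 counts it fell under the filter of 10, and without that filter its spread passed the test (adjusted p = 0.00385, chi-square test). Library 1 was not the smallest library. A 0 there was found in 54 of 319 protein-coding genes (16.9%) that had 20 to 30 counts in libraries 2 and 3 together. MCIDAS, by contrast, had 127 counts in library 1.

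Geminin itself, the relative of both, was far more abundant. GMNN, which blocks the replication licensing factor CDT1 and can bind MCIDAS and GMNC, stood at 16.6, 18.1 and 19.6 RPKM in libraries 1, 2 and 3. MCIDAS was 15.8-fold below GMNN on average (log2 difference -3.98 ± 0.24 SD, lower in each of the 3; p = 0.25 by the exact test). With the longest transcript as length the log2 difference was -4.95. GMNC was 246-fold and 435-fold below GMNN in libraries 2 and 3. In library 1 the limit of 3 counts would put it at least 1022-fold below. That limit covers counting error alone, and 16.9% of protein-coding genes of like counts had a 0 in library 1. These ratios also moved with the length used. MCIDAS varied little while GMNN was lowest in library 1 (adjusted p = 2.1e-06, chi-square test).

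Transcripts of all 6 listed partners and inhibitors (GMNN, CDT1, E2F4, E2F5, TFDP1, TFDP2) were detected, beside 57.7% of all protein-coding genes. Their median was 15.6 RPKM. E2F4, the main E2F partner of multicilin, stood at 13.07 ± 0.124 RPKM, and MCIDAS lay 11.4-fold below it (log2 difference -3.52 ± 0.11, or -4.29 without length). E2F5 stood at 0.700 ± 0.0463 RPKM, and MCIDAS lay 1.63-fold above it per unit of length but below it without length (log2 difference 0.71, or -0.80 without length). TFDP1, the DP subunit, was the highest of the list at 53.7 ± 7.51 RPKM, followed by CDT1 at 22.9 ± 0.911 (SD, n = 3 each). Of the 6 genes 4 passed the spread test, beside 68.6% of all tested genes. All 4 were lowest in library 1, as CCNO was, and 33.4% of all tested genes were called and lowest there. The 4 proliferation markers summed to 1546, 1605 and 1754 CPM in libraries 1, 2 and 3, also lowest in library 1. Of them 3 were called and lowest in library 1, while MKI67 was lowest in library 2 (619, 590 and 642 CPM). The part of the proliferation markers in these values was not tested.

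MYB (ENSG00000118513, chromosome 6, 135181315 to 135219173, plus strand), a transcription factor of blood progenitors that also acts early in multiciliated cells, differed between libraries. It had 126, 112 and 59 counts, or 2.60, 1.84 and 1.26 CPM (0.346 ± 0.122 RPKM). Library 1 was highest and library 3 lowest, a ratio of 2.06, and their intervals (2.16 to 3.09 and 0.960 to 1.63 CPM) did not overlap. The spread passed the test (adjusted p = 3.34e-05, chi-square test). Without library 1 it missed the threshold (adjusted p = 0.0594).

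The relatives of MYB were far above it and did not share its order of libraries. MYBL2, a cell cycle transcription factor, stood at 28.2, 35.96 and 34.8 RPKM, lowest in library 1 where MYB was highest. MYBL1 stood at 20.97, 16.3 and 18.7 RPKM, highest in library 1 like MYB but lowest in library 2 rather than library 3. MYB lay 98.3-fold below MYBL2 (log2 difference -6.62 ± 0.68 SD, or -5.64 without length) and 55.7-fold below MYBL1 (-5.80 ± 0.47), with the same sign in every library (exact p = 0.25 for both). Because MYB is also a blood progenitor gene, blood markers are given beside it. Of 9 blood markers 4 were detected (PTPRC, CD34, LCP1 and CORO1A), HBB, CD3E and KIT had 0 counts, and the list summed to 16.8, 14.4 and 14.2 CPM in libraries 1, 2 and 3. PTPRC, the CD45 gene, was highest in library 1 like MYB, at 2.95 CPM against 1.53 and 1.71. It was the only 1 of the 4 tested blood markers to pass the spread test, beside 68.6% of all tested genes. CD34 and LCP1 were also highest in library 1 without passing (adjusted p = 0.429 and 0.0549, chi-square test), while CORO1A was lowest there. The part of PTPRC in the MYB values was not tested.

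**Figure D3:**
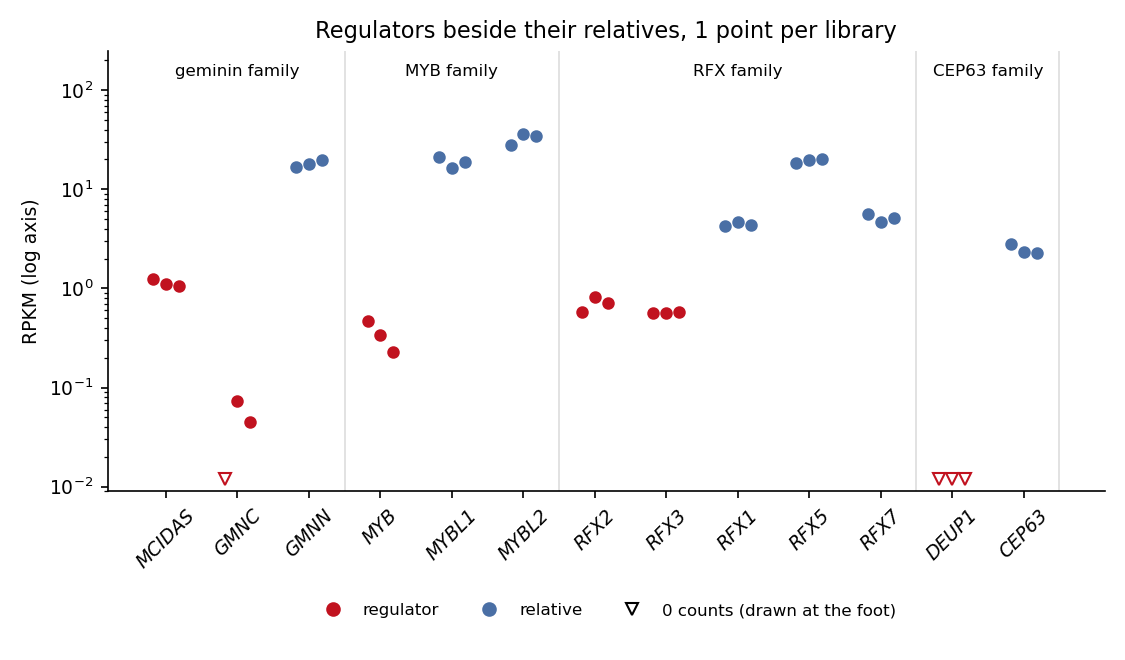
RPKM (log axis) of MCIDAS, GMNC, MYB, RFX2, RFX3 and DEUP1 in red and of their relatives in blue, 1 point per library. Genes are grouped by family, with open triangles at the foot for libraries with 0 counts. Each of these regulators lies below the relatives plotted beside it (GMNN, MYBL1, MYBL2, RFX1, RFX5, RFX7 and CEP63). Not plotted are CCNO and CCDC78, and RFX4, RFX6 and RFX8, which had 0 counts. DEUP1 has no counts in any library.

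Of the deuterosome genes, DEUP1 had no counts and CCDC78 was low. DEUP1 (ENSG00000165325, chromosome 11, 93329971 to 93438487, plus strand), which scaffolds the deuterosome, had 0 counts in each library, which allows up to 0.0618, 0.0494 and 0.0641 CPM. A level of 0 in all 3 libraries was found in 22.5% of protein-coding genes. CEP63, the paralogue of DEUP1 that serves the mother centriole, had 1410, 1478 and 1119 counts, or 2.80, 2.34 and 2.30 RPKM. DEUP1 was at least 191-fold, 201-fold and 152-fold below CEP63 in libraries 1, 2 and 3, with the limit of 3 counts per library.

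CCDC78 (ENSG00000162004, chromosome 16, 722582 to 726954, minus strand), described as a deuterosome protein in frog, had the highest ratio between libraries of the 6 regulators tested. It had 97, 46 and 38 counts, or 1.998, 0.757 and 0.812 CPM. Library 1 was high, and its interval (1.62 to 2.44 CPM) did not overlap those of library 2 (0.554 to 1.01) and library 3 (0.575 to 1.11). The ratio from highest to lowest was 2.64, and the spread passed the test (adjusted p = 2e-09, chi-square test). Without library 1 the remaining values did not exceed counting noise (adjusted p = 0.852). Annotated exons cover 94.8% of the span of this gene, so its counts hardly separate spliced from unspliced RNA, and its RPKM (0.287 ± 0.169) is uncertain. It was the only regulator of the 8 with such cover, against 71.5% for CCNO and 27.1% or less for the others.

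RFX2 and RFX3, the transcription factors of cilium genes, both passed 1 CPM in every library, at means of 6.37 and 6.38 CPM. RFX2 (ENSG00000087903, chromosome 19, 5993164 to 6199572, minus strand) had 254, 448 and 304 counts, or 5.23, 7.37 and 6.50 CPM. Library 1 was lowest and its interval (4.61 to 5.92 CPM) did not overlap that of library 2 (6.71 to 8.09), while it overlapped that of library 3. The spread passed the test (adjusted p = 0.000156, chi-square test), but without library 1 it did not (adjusted p = 0.202). RFX2 shares 2.06% of its exon length with a gene on the same strand and 1.77% with genes on the other strand.

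RFX3 (ENSG00000080298, chromosome 9, 3218297 to 3526004, minus strand) was the steadiest regulator. It had 309, 386 and 300 counts, or 6.37, 6.35 and 6.41 CPM (mean 6.38 ± 0.0308 SD, n = 3). These values were not told apart from counting noise (adjusted p = 0.994, chi-square test). RFX2 exceeded RFX3 per unit of length by a log2 difference of 0.28 ± 0.25, but only by 0.01 in library 1, and without length the mean difference was -0.016, while with the longest transcript it was 1.21. The order of RFX2 and RFX3 therefore rested on the length used.

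The other RFX genes were higher or had 0 counts. RFX5, the factor of MHC class II promoters, led the family at 18.6, 19.6 and 20.4 RPKM, with RFX7 at 5.60, 4.71 and 5.15 and RFX1 at 4.28, 4.73 and 4.34. RFX3 lay 34.1-fold below RFX5, 8.99-fold below RFX7 and 7.78-fold below RFX1, with the same sign in every library (p = 0.25 for each, exact test). RFX2 lay 6.41-fold below RFX1 (log2 difference -2.68). The sizes depended on length, at -1.83 for RFX2 minus RFX1 with the longest transcript and -1.94 without length (log2). Without length RFX3 minus RFX5 was -3.81, against -5.09 with all annotated exons, and RFX3 minus RFX1 was -1.93, against -2.96. RFX4, RFX6 and RFX8 had 0 counts in each library. Of the 8 listed MYB and RFX relatives, 5 were detected and all 5 passed the spread test, which 68.6% of all tested genes passed.

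Ordered per unit of length, the regulators ran from CCNO (5.75 ± 1.201 RPKM) through MCIDAS (1.14 ± 0.101), RFX2 (0.700 ± 0.118), RFX3 (0.571 ± 0.00276), MYB (0.346 ± 0.122) and CCDC78 (0.287 ± 0.169) to GMNC (0.0395 ± 0.0371) and DEUP1 without counts (SD, n = 3). Without library 1 CCDC78 averaged 0.189 RPKM, and GMNC averaged 0.0593 without library 1 and 0.0225 without library 2. Among the 6 neighbouring pairs with counts, the ranges over libraries did not overlap in 5, and MYB and CCDC78 overlapped. The exact sign-flip test used here cannot give a p under 0.25 with 3 libraries, so it could call none of them, and the adjusted p was 0.3 for the 5 pairs and 0.5 for MYB and CCDC78 (exact test). With the longest transcript as length, RFX2 had 1.595 RPKM and stood above MCIDAS (log2 difference of MCIDAS minus RFX2 -0.47, against 0.72 with all annotated exons). Without length CCNO stayed first, followed by RFX2 and RFX3, whose mean CPM were 6.37 and 6.38, and then by MCIDAS and MYB.

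The regulators did not share an order of libraries. CCNO and RFX2 were lowest in library 1, with a log2 CPM difference of -0.55 and -0.40 from the mean of libraries 2 and 3. MYB and CCDC78 were highest there, at 0.77 and 1.35. MCIDAS and RFX3 differed by 0.21 and -0.0038 and did not pass the test. Of the 6 regulators tested 4 passed, beside 68.6% of all tested genes and 57.0% of the 3585 genes in the same range of counts (means of 60.3 to 547). Being called and lowest in library 1 applied to 33.4% of all tested genes, and being called and highest there to 27.9%, so a spread of this kind was common among all genes. When each gene was granted a further coefficient of variation of 0.05, the same 4 regulators passed, beside 32.7% of all tested genes and 37.5% of those in that range. The log2 difference of CCDC78 reached or exceeded 99.5% of the genes in that range, and MYB 94.4%, while CCNO reached 10.8% and RFX2 17.9%. Mitochondrial transcripts took 9.69% of counts in library 1, against 5.67% in library 2 and 6.30% in library 3. With totals scaled without mitochondrial genes, CCNO, MYB, CCDC78 and RFX2 still passed and MCIDAS and RFX3 did not. That scaling moved the relative library sizes little, so it could hardly change a call. The part of mitochondrial transcripts in the differences was not tested.

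**Figure D4:**
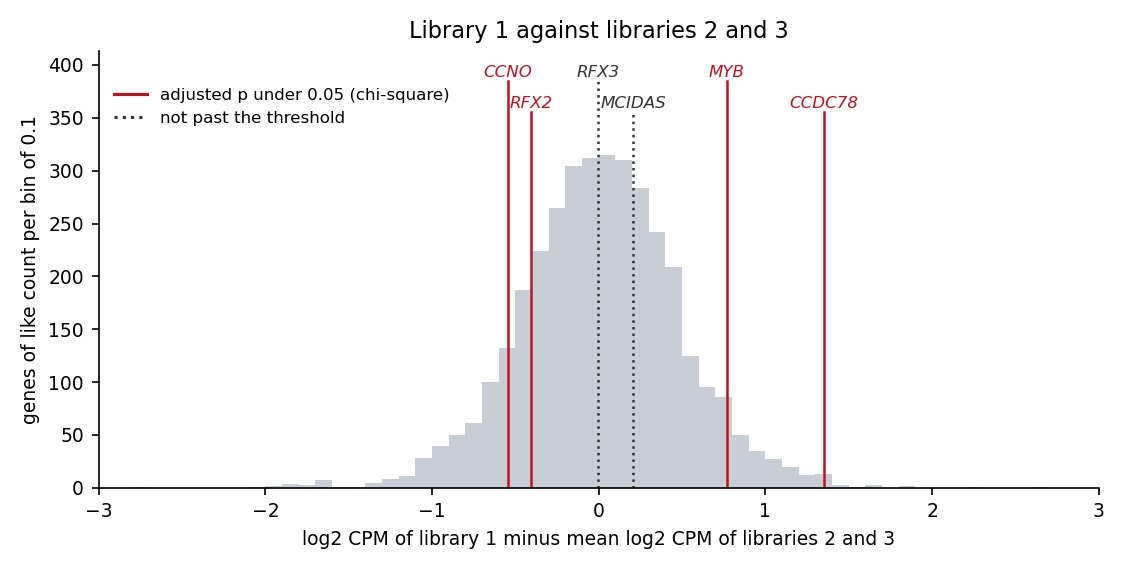
Histogram of log2 CPM in library 1 minus the mean log2 CPM of libraries 2 and 3 for genes in the same range of counts as the tested regulators, with a line for each of the 6 tested regulators (solid red where the chi-square test passed, dotted where it did not). CCNO and RFX2 lie left of 0, MYB and CCDC78 right of it, and RFX3 at 0.

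The genes nearest to each detected regulator in all 3 libraries, by the mean absolute difference in log2(CPM + 0.5), are given as a description over 3 libraries. They were RHBDL1 (0.0169) and AGAP4 (0.0245) for MCIDAS, HDAC11 (0.0248) and IBA57 (0.0365) for CCNO, and ICAM1 (0.0441) and VASH2 (0.0478) for MYB. For RFX2 they were TPCN2 (0.0264) and C11orf1 (0.0375), and for RFX3 ZNF678 (0.0219) and HIST1H3E (0.0242).

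The share of genes detected differed widely among the other lists of the pathway. Over the 6 pathway lists, 36 of 64 genes (56.3%) were detected, close to the 57.7% of protein-coding genes. Of the centriole amplification genes 9 of 10 were detected, all but CDC20B, with a median of 5.84 RPKM. CETN2 (364 ± 34.2 RPKM, including any reads of the GFP-tagged copy) and the kinase gene CDK2 (38.9 ± 4.24) were the highest. CEP152, which binds CEP63 or DEUP1, was the lowest detected at 2.27 ± 0.185. Of the 9 tested genes 7 passed the spread test, beside 68.6% of all tested genes. PLK4 did not (14.3 RPKM, adjusted p = 0.959, chi-square test), and its counts may include the inducible copy.

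Of the other regulators 1 of 4 was detected, TRRAP, a scaffold of histone acetyltransferase complexes, at 5.14 ± 0.221 RPKM. FOXJ1, the motile cilium master factor, had 5, 2 and 0 counts. TP73, which acts upstream of FOXJ1 in mouse airway, had 0, 10 and 3 counts, and FOXN4 had 0, 2 and 0. TP73, GMNC and CDC20B all had 0 counts in library 1 and some in libraries 2 and 3, while FOXJ1 had its 0 in library 3. Fewer genes had counts in library 1 (19953) than in library 2 (24416) or library 3 (23050). Of protein-coding genes with 20 to 30 counts in libraries 2 and 3 together, 16.9% had 0 counts in library 1. TP73, with 10 and 3 counts in those libraries, lay below that range.

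Of the 26 motile cilium genes 7 were detected, with a median of 0.0217 RPKM over all 26. The highest were CFAP45 (1.93 ± 0.364 RPKM), a microtubule inner protein, and CAPS (1.35 ± 0.275), a calcium-binding protein of ciliated cells, and the lowest detected was the dynein heavy chain gene DNAH5 (0.168 ± 0.0217). LRRC6 and ZMYND10, dynein assembly factors, the axonemal gene CCDC40 and CCDC113 made up the rest, at 0.269 to 0.690 RPKM. RSPH1, SPAG6, TEKT1 and TEKT2 had 0 counts. Of the 11 genes with enough counts, 5 passed the spread test, against 68.6% of all tested genes. That share depended on counts and was 57.0% at mean counts of 60.3 to 547. These 11 genes had mean counts from 11.7 (PIFO) to 291 (CAPS).

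Of the 10 Notch genes, which hold back the multiciliated fate, 8 were detected. NOTCH2 stood at 18.9 ± 0.526 RPKM and the ligand gene JAG1 at 14.8 ± 0.452, and JAG2 was the lowest detected at 0.314 ± 0.0861. HES1, a repressor induced by Notch, stood at 7.57, 5.53 and 5.48 RPKM, highest in library 1 as MYB and CCDC78 were (adjusted p = 1.88e-10, chi-square test). NOTCH3 (4, 15 and 8 counts) and HEY2 (0, 1 and 0 counts) were not detected. NOTCH1 went the other way, lowest in library 1 at 98.1 CPM against 125 and 111 (adjusted p = 9.2e-37, chi-square test). Of the 8 tested genes 7 passed the spread test, a test passed by 68.6% of all genes it was run on. Of the 7, 4 were highest in library 1 and 2 lowest there. Among all tested genes 27.9% were called and highest in library 1, and 33.4% called and lowest.

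**Figure D5:**
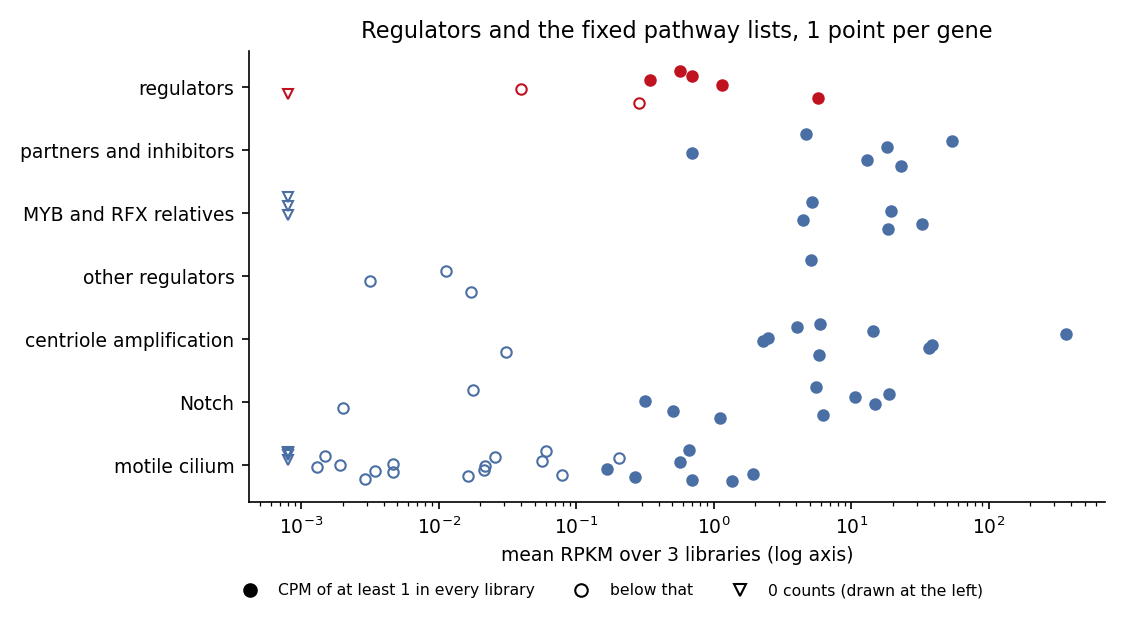
Mean RPKM over the 3 libraries (log axis) of the regulators in red and of each pathway list in blue, 1 point per gene, filled where the gene had 1 CPM or more in every library and drawn as a triangle at the left where it had 0 counts. The partners and inhibitors are all detected, and most motile cilium genes lie below 0.1 RPKM.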

How the data were processed

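The authors deposited raw counts per gene. Software named in the submitters' processing notes was cutadapt 1.16, STAR 2.5.2a and featureCounts 1.6.2, with build hg38. Strand setting and treatment of multiply mapped reads: not given in the sources used here. Another 6 columns of counts matched no sample given here and were not used. All 58735 identifiers matched GENCODE 29, used for positions and exon lengths.

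CPM used TMM-scaled totals (edgeR 4.0.16, R 4.3.3), and RPKM is CPM per kb of merged exons. Genes whose counts averaged 10 or more were tested (chi-square, Benjamini-Hochberg, 0.05), after a check on simulated counts. The simulated counts held counting noise and set changes in library 1, without the wider spread of these libraries. Pairs of genes (6 neighbours in level, 12 others) were compared per library, adding 0.5 to each count, by sign-flip test. Intervals are Clopper-Pearson at 95%, a count of 0 allows 3, and both cover counting error alone, as PCR copies are not separate molecules. For CCDC39, 1 of a pair of rows was used. Of the blood markers, 1 is not reported here by itself. Members and lists were chosen with earlier results of these data known. Named genes are the members, set paralogues and partners, the 2 highest and the lowest detected of each list, undetected genes, those nearest in level and chromosome neighbours. Named outside that rule after values were seen were CCDC40, LRRC6, ZMYND10, CCDC113, HES1, NOTCH1, CD34, MKI67 and PLK4. The 12 pairs and the comparisons with genes of like counts were also chosen after seeing the data. Alternatives were DESeq2 1.42.0 size factors, raw totals, totals without mitochondrial genes, other filters, thresholds and lengths, and each library left out.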

Additional observations from a re-analysis of the deposited data

How the results depend on the processing

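With an extra coefficient of variation of 0.05 the number of genes called for spread was 5322 instead of 11182, and leaving out 1 library gave 4581 to 9992. The lowest was without library 1, where CCNO, MYB, CCDC78 and RFX2 no longer passed. Of the 6 neighbouring pairs of regulators, 5 kept their order with the longest transcript as length and 4 without length. MCIDAS minus RFX2 was -0.47 with the longest transcript and -1.40 without length (log2), RFX2 minus RFX3 -0.016 without length and MCIDAS minus E2F5 -0.80 without length. These changes follow from the length used. The number of regulators detected ran from 4 to 6 over the thresholds and stayed at 5 under every scaling and with any library left out. Another library scaling changed no call for a regulator. No paired analysis was possible because only 1 group was present. Depth limits GMNC and DEUP1, which had 25 and 0 counts over the 3 libraries.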
